A study of Mus musculus with 4 samples.

Results

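The baseline miRNA cargo of hepatic EVs was described from the Chow-EV array, which is 1 of the 4 arrays of the series and was chosen by its label alone, not by its values. Chow-EV holds extracellular vesicles (EVs) from primary hepatocytes of wild-type male B6 mice that had eaten a chow diet for 12 weeks and reached an age of 20 weeks. Culture of the hepatocytes lasted 48 h, the EVs were collected by ultracentrifugation, and material from 4 animals was pooled before RNA was labelled with Cy3 and hybridised to an Agilent mouse miRNA array. The other arrays of the study, which asked how a high-fat diet and loss of Ggpps in liver change this cargo, are not compared here. Whether these wild-type mice also received the injections that induced the deletion in the knockout mice is not given in the sources used here. With 1 array there is no replicate, so no test was made. For a miRNA, the value after ± combines the SDs over the repeated spots of each of its probes, as the root of their summed squares. It leaves out the difference between probes. For a share, such SDs are combined over its miRNAs and divided by the total signal, taken as fixed. For controls it is the SD over spots. All these SDs measure technical scatter on 1 slide, and the variation from mouse to mouse or from one EV isolation to the next is unknown.

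EVs are membrane vesicles that cells release and that carry proteins and RNA, miRNAs among them. A miRNA is cut from the stem of a hairpin precursor by Drosha and Dicer, which leaves a duplex of a 5p and a 3p strand, and usually 1 strand is kept by an Argonaute protein while the other is degraded. The kept strand finds target mRNAs mainly through its seed, bases 2 to 8 from its 5′ end, so miRNAs with a common seed are grouped as a family. In liver, miR-122 is the miRNA most used as a mark of hepatocytes.

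The array measured 1881 mouse miRNAs with 4415 probes and 56430 spots, of which 2146 outlier spots were left out and none was saturated. The signal of a miRNA is the sum over its probes of the mean background-subtracted spot intensity, in arbitrary units. The number of probes differs between miRNAs, for example 2 for miR-122-5p, 3 for miR-30a-5p and 4 for miR-721 and miR-188-5p. A miRNA with more probes can therefore have a higher sum at the same signal per probe. A miRNA was called above background where 1 probe or more had most of its spots (over 50%) well above background, and 497 of 1881 miRNAs (26.4%) passed. The spots of the negative controls averaged -2.53 ± 3.31 (SD, n = 400 spots), and the 1384 miRNAs not above background had a median of -0.53. Among the 497, 378 were above background on every probe, and 119 on some of their probes with a median signal of 32.8. The dimmest 3 miRNAs that passed were miR-6402, miR-5627-5p and miR-7063-5p with 16.9, 15.7 and 15.5, whereas miR-150-3p, miR-667-3p and miR-493-3p had 33.5, 31.2 and 28.0 and did not pass. The 3 that passed were summed over 2 probes each and the 3 that did not pass over 4 each, while the call is made per probe. With 2 probes, miR-137-3p had 22.7 and did not pass. Thus summed signals between about 15.5 and 33.5 do not separate the miRNAs by this call. Probes differ in labelling and binding, so the shares below describe signal, and a ratio of signals between miRNAs or strands is no ratio of molecules.

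The sequences that follow show the range of base composition among bright miRNAs. The first set holds bright miRNAs with numbers under 1000. The second holds bright miRNAs with numbers of 1000 or more, most of them with many G bases. Mature sequences are those of RefSeq (GRCm38.p6), 5′ to 3′, with the seed in capitals.
miR-494-3p: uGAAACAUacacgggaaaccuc
miR-21a-5p: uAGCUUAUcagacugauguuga
miR-192-5p: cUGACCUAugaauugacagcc
miR-29a-3p: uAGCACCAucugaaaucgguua
miR-22-3p: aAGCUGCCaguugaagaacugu
miR-148a-3p: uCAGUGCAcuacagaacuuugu
miR-5126: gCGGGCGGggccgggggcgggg
miR-8117: gCUCGUGUggaacagaagggg
miR-3473b: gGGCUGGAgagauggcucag
miR-6769b-5p: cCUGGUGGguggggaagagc
miR-8110: aAGCGUGGauugggggggggg
miR-3963: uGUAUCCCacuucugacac
miR-1224-5p: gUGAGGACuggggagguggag
G makes up 18.2% of the bases of miR-494-3p, 22.7% of miR-21a-5p and 19.0% of miR-192-5p. It makes up 77.3% of miR-5126, 47.6% of miR-8117, 66.7% of miR-8110 and 61.9% of miR-1224-5p, but 10.5% of miR-3963, which had a signal of 15417 ± 352.

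The signal was concentrated in few miRNAs. miR-122-5p was the brightest at 82637 ± 2104 (n = 30 spots), which is 13.4 ± 0.34% of the summed signal of 616990. Its probes gave 28694 and 53943, and the 15 spots of the brighter probe ran from 49125 to 56229. The next brightest, miR-5126, had 40728 ± 576, so miR-122-5p was 2.03 times as bright. miR-494-3p followed at 38713 ± 598, miR-21a-5p at 30029 ± 877 and miR-8117 at 29947 ± 278, and the last 2 differed by less than the spot SD. miR-21a-5p is a widely expressed miRNA known for its rise in injured and proliferating cells. The dimmer members of the 10 brightest were miR-7042-5p (28423), miR-3960 (25962), miR-3473b (23227), miR-6769b-5p (15645) and miR-8110 (15626). Together these 10 gave 53.6% of the summed signal.

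**Figure D1:**
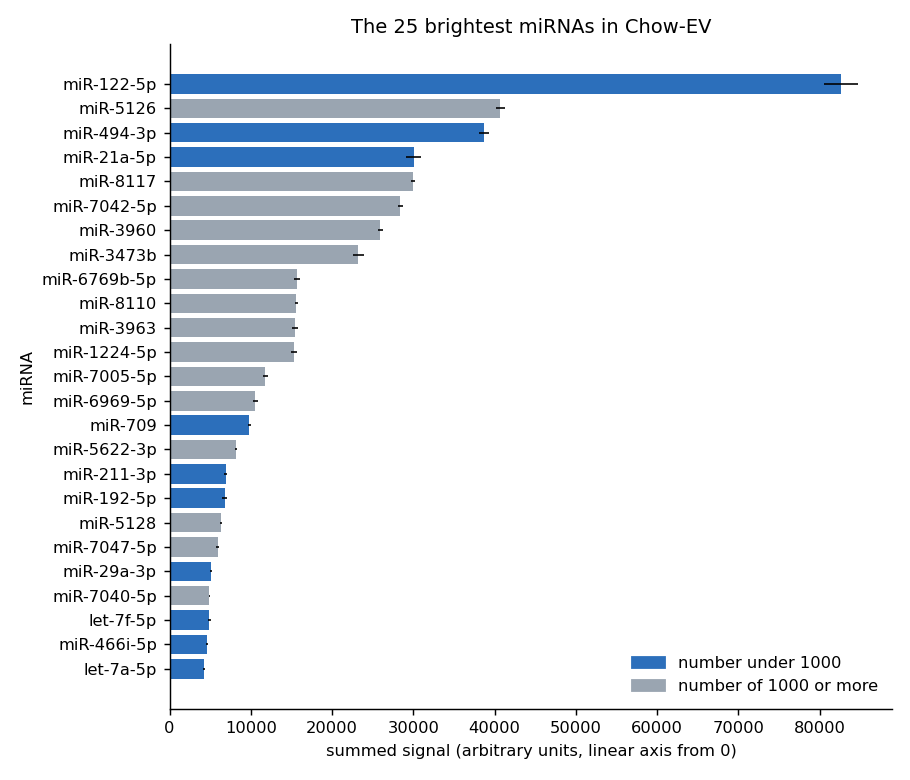
Summed signal (x axis, arbitrary units, linear from 0) of the 25 brightest miRNAs of Chow-EV, with bars coloured by miRBase number and error bars giving the SD between replicate spots. miR-122-5p at 82637 stands above miR-5126 at 40728, and the 25th, let-7a-5p, had 4240.

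Beyond the brightest miRNAs the signals fell off steeply. The 9 brightest miRNAs made up 50% of the summed signal, 29 made up 75%, 87 made up 90% and 153 made up 95%. The dimmer 249 of the 497 together gave 2.21%. The median miRNA above background had a signal of 120, with quartiles of 46.7 and 423. Spot noise was small where the signal was high, with a median coefficient of variation of 2.44% over the 50 brightest miRNAs and 18.6% over the 50 dimmest.

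**Figure D2:**
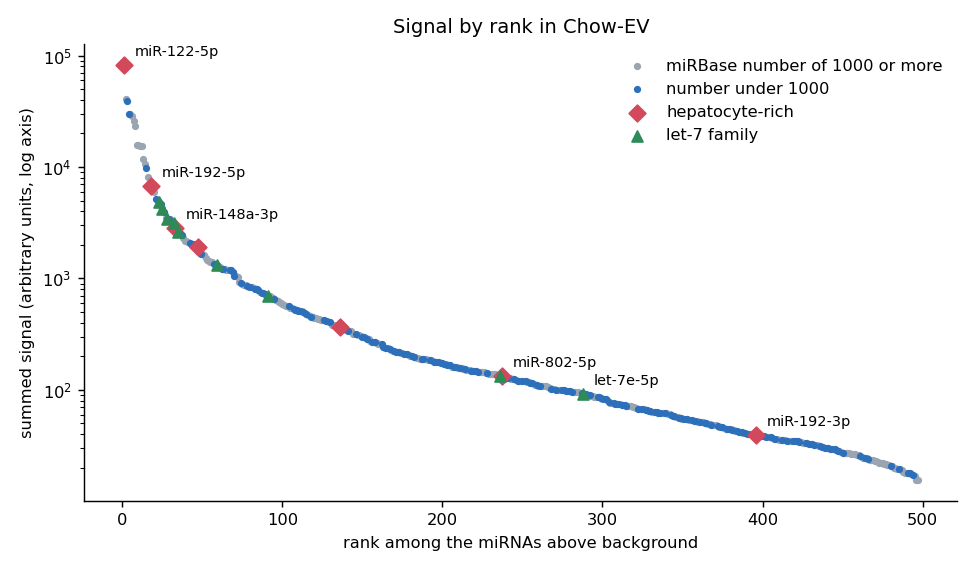
Summed signal (y axis, arbitrary units, log axis) of the 497 miRNAs above background by rank (x axis), with points coloured by miRBase number and larger symbols for hepatocyte-rich miRNAs and the let-7 family. The signals ran from 82637 for miR-122-5p to 15.5, and the 7 hepatocyte-rich miRNAs lay between ranks 1 and 396.

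The positions of the bright miRNA genes were spread over the genome (GRCm38.p6, RefSeq). Mir5126 lies at chr1:84695839-84695915 within the span of Dner, Mir21a at chr11:86584067-86584158 within that of Vmp1, and Mir494 at chr12:109715318-109715402 outside any protein-coding gene. Mir8117 lies at chr5:50252762-50252868 and Mir8110 at chr8:89024735-89024831, both outside protein-coding genes. Mir1224 lies at chr16:20604452-20604536 within the span of Vwa5b2, where it is known as a mirtron, a hairpin made from a short spliced intron without Drosha.

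The hepatocyte label was set beside marker miRNAs. Their lists were chosen with earlier results of these data known, so this is no independent check of the label. All 7 hepatocyte-rich miRNAs on the list were above background, against 26.4% of the array as a whole. They gave 15.3 ± 0.34% of the summed signal, of which miR-122-5p alone gave 13.4%. Beside miR-122-5p, miR-192-5p had 6767 ± 261 and miR-194-5p had 1904 ± 56.4, both of which are transcribed in liver and gut epithelium from genes under hepatocyte nuclear factors. miR-148a-3p, which represses the low-density lipoprotein receptor, had 2837 ± 51.3. miR-802-5p, a liver miRNA linked to glucose metabolism in obesity, had 133 ± 6.90. The minor strands miR-122-3p and miR-192-3p had 369 ± 15.5 and 39.0 ± 4.24, and for miR-192-3p only 1 of its 2 probes passed. The brightest member was therefore 12.2 times as bright as the next, and the list spanned the array from its brightest miRNA to rank 396. The list holds both strands of miR-122 and miR-192 only. Of partner strands not on it, miR-194-2-3p at 1.27, miR-148a-5p at 0.92 and miR-802-3p at -0.39 did not pass. The lists of other cell types do hold several partner strands that failed. The shares of members that passed therefore depend in part on this uneven choice of strands.

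Markers of other cell types were dimmer as a group. Of 47 such miRNAs, 13 (27.7%) were above background, a share near the 26.4% of the whole array. Their summed signal was 2193 or 0.36% of the total, and the hepatocyte-rich list was 43.2 times as bright as that sum. Of the 94686 of the hepatocyte-rich list, miR-122-5p gave 82637. Both endothelial miRNAs passed, miR-126a-3p with 1213 ± 28.1 and miR-126a-5p with 63.1 ± 6.77, the latter on 1 of its 2 probes. miR-126a lies within the span of Egfl7, the endothelial gene that hosts it. Of 8 immune and Kupffer cell miRNAs 6 passed, led by the myeloid miR-223-3p with 179 ± 7.35, then miR-146a-5p with 142, miR-155-5p with 128, miR-342-3p with 93.4, miR-142a-3p with 61.5 and miR-511-3p with 33.5. For miR-511-3p only 1 of its 2 probes passed. miR-142a-5p at 9.34 and the lymphocyte miRNA miR-150-5p at 0.43 did not pass. Thus endothelial and myeloid miRNAs were measurable, and miR-122-5p was 68.1 times as bright as miR-126a-3p and 460 times as bright as miR-223-3p. The source of these miRNAs was not tested. In a bulk EV preparation, few vesicles from another cell type and little miRNA per vesicle cannot be told apart. Nor can low levels in the hepatocytes' own vesicles or a remainder from the serum of the EV-depleted medium be told from these.

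Most members of the remaining lists were near the negative controls. Of 4 erythroid miRNAs, miR-451a with 28.5 ± 2.92, on 1 of its 2 probes, and miR-486a-5p with 28.7 ± 5.04 passed and both strands of miR-144 did not. Of 8 stellate and other mesenchymal miRNAs, miR-199a-3p passed with 29.2 ± 5.11 on 1 of its 2 probes. By contrast, miR-143-3p, miR-145a-5p and miR-214-3p had 0.96, 5.58 and 7.68. Of 7 bile duct and other epithelial miRNAs, miR-203-3p passed with 154 ± 7.74, whereas the 3p strands of miR-200a, miR-200b, miR-200c, miR-141 and miR-429, and miR-205-5p, ran from 1.52 to 5.85. Of their 5p strands, which were not on the list, miR-141-5p passed with 51.4 ± 7.27, and miR-200a-5p with 26.5 and miR-200b-5p with 24.8 did not. None of 7 skeletal and heart muscle miRNAs (highest signal 8.39, miR-206-3p) and none of 4 pancreatic miRNAs (highest 3.85, miR-217-5p) passed. Of 7 neuronal miRNAs, miR-219a-5p passed with 38.1 ± 5.41. miR-137-3p had 22.7 ± 2.91 and did not pass, and miR-124-3p and miR-9-5p were at -1.93 and -0.70. Most miRNAs that define muscle, brain, pancreas and bile duct thus lay within a few units of the negative controls.

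**Figure D3:**
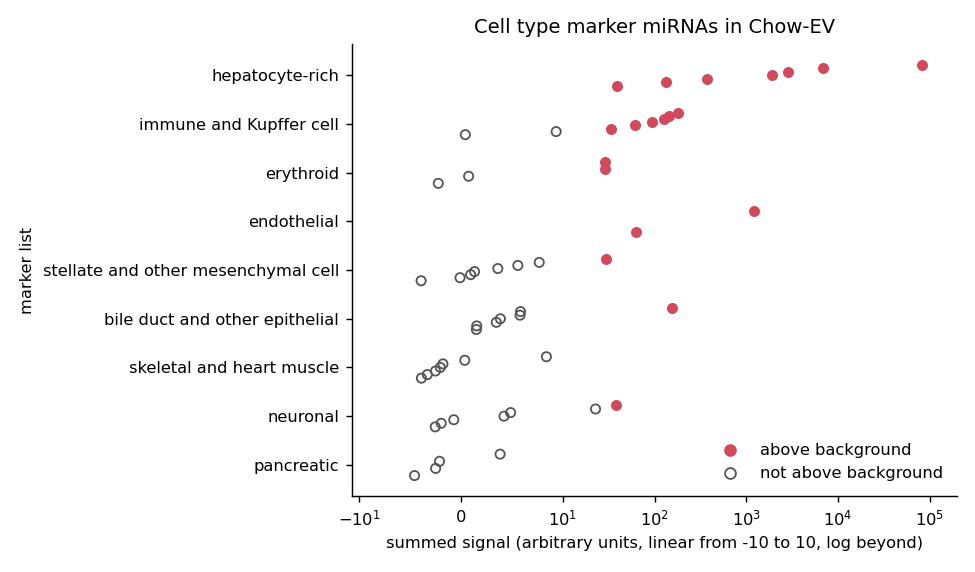
Summed signal (x axis, arbitrary units, linear near 0 and log beyond) of each miRNA on the 9 marker lists (y axis), filled where above background. The 7 hepatocyte-rich miRNAs ran from 39.0 to 82637, and the muscle and pancreatic miRNAs did not exceed 8.39.

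Functional lists, also chosen with earlier results of these data known, were measured beside the markers. Of 12 miRNAs of lipid and cholesterol metabolism, 10 were above background (83.3%, against 26.4% of all miRNAs on the array), with 1.37% of the summed signal. miR-148a-3p led with 2837, followed by miR-370-3p with 2464, miR-30c-5p with 902, miR-107-3p with 530 and miR-378a-3p with 522, and the dimmest that passed were miR-185-5p with 110 and miR-378a-5p with 35.6. miR-33-5p, which lies in an intron of Srebf2 and represses the cholesterol exporter Abca1, had 8.28 ± 2.45 and did not pass, nor did miR-33-3p at -5.34. Of 16 miRNAs of adipocyte differentiation, 14 passed (87.5%, against the same 26.4%), with 1.76% of the summed signal. These 14 include miR-31-5p and miR-210-3p, which the study followed up. miR-30a-5p (3431), let-7b-5p (2624), miR-20a-5p (1191) and miR-130a-3p (1150) led this list, and miR-143-3p and miR-204-5p did not pass. The miRNAs the study followed up in adipocytes were chosen from these arrays, so their detection is no independent evidence. Beside miR-122-5p they had 237 ± 10.3 for miR-31-5p, 190 ± 9.78 for miR-210-3p, the miRNA of the hypoxia response, and 92.7 ± 6.46 for let-7e-5p.

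The let-7 family, which represses growth genes such as Hmga2 and Lin28 and is abundant in differentiated tissue, gave 3.34 ± 0.045% of the summed signal. Its members are shown to let their near identity be seen.
let-7f-5p: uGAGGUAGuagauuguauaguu
let-7a-5p: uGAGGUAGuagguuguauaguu
let-7c-5p: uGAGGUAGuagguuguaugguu
let-7g-5p: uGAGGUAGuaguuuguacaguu
let-7b-5p: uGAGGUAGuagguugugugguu
let-7e-5p: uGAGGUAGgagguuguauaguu
The brightest was let-7f-5p at 4886 ± 204, followed by let-7a-5p at 4240 ± 80.8, let-7c-5p at 3448 ± 126, let-7g-5p at 3160 ± 98.3 and let-7b-5p at 2624 ± 51.6. let-7d-5p had 1321 ± 41.7, let-7i-5p 700.4 ± 20.1, miR-98-5p 133 ± 5.25 and let-7e-5p 92.7 ± 6.46. let-7k at 7.26 and miR-1961 at -1.46, which shares the seed, did not pass. let-7e-5p, let-7f-5p and let-7c-5p each differ from let-7a-5p at 1 of 22 bases, yet let-7f-5p was 52.7 times as bright as let-7e-5p. How far a probe of this family also bound its relatives was not measured.

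Seed families were formed from the 1608 miRNAs with a mature sequence in the reference, 425 of them above background. Those with a sequence gave 71.6% of the summed signal. miR-122-5p, miR-7042-5p and miR-3960 are not among them, so they are in no seed family here. Of 174 seeds held by 2 or more of these miRNAs, 87 had a member above background, 33 had 2 or more and 18 had every member above background. Among these 174 seeds the largest summed signal was that of the miR-21 seed AGCUUAU, with 30029 from miR-21a-5p, while miR-21c was at -3.37. The seed GGCUGGA followed with 23871, of which miR-3473b gave 97.3% and miR-3473e the rest. Here 1 member carried the family, and the same held for the seed CUGGGGA, where miR-7005-5p had 11787 and miR-6975-5p 3.60.

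Other families were spread over their members. The miR-29 family (seed AGCACCA), known for repressing collagen genes, had 5122 ± 142 for miR-29a-3p, 1905 ± 44.4 for miR-29c-3p and 1210 ± 43.2 for miR-29b-3p. The seed GUAAACA of the miR-30 family had 3431 over 3 probes for miR-30a-5p, 902 over 2 for miR-30c-5p and 503 for miR-30e-5p. In the same seed miR-384-5p at -1.75 did not pass. These are the members with a sequence in the reference, and miR-30b-5p and miR-30d-5p, named as miR-30 but not in this sum, had 721 and 407. miR-26b-5p and miR-26a-5p (seed UCAAGUA) had 2043 ± 51.1 and 1351 ± 28.4. In the seed AGUGCAA, miR-721 had 2027 summed over 4 probes and miR-130a-3p 1150 over 2, so these sums do not rank them per probe. In this seed miR-130b-3p had 30.9 and miR-301a-3p, which did not pass, 6.0. In the seed UGACCUA, miR-192-5p had 6767 and miR-215-5p, its close relative, 2.02. The seed GAGGGAG was led by miR-7047-5p with 5920, ahead of miR-6965-5p with 336. The 10 brightest of these seed families, with let-7 among them and miR-122-5p in none, gave 19.3% of the summed signal.

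The strands of single hairpins were compared where the array carried both, which it did for 723 hairpins paired by name. Hairpins with a dim strand below background were given a bound against 15.5, the lowest signal above background, or against the strand's own signal where that was higher. At least 1 strand was above background for 309 hairpins, both strands for 38, the 5p strand alone for 196 and the 3p strand alone for 75. The 5p strand was at least 2-fold brighter in 179 of 309 (57.9%) and the 3p strand in 80 (25.9%), and 50 were within 2-fold. Where both strands passed, the median ratio of the brighter to the dimmer was 4.45, with quartiles of 1.92 and 16.0. A strand that failed the detection call enters these counts through its bound, so a dim hairpin can fall within 2-fold for that reason alone.

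The widest measured ratios were among the brightest miRNAs. miR-21a had 30029 ± 877 for its 5p and 53.5 ± 2.59 for its 3p strand, a ratio of 562. miR-122 followed with 224 (82637 and 369), miR-192 with 174 (6767 and 39.0), miR-466i with 88.2 (4644 and 52.6), miR-7686 with 30.4 and miR-30a with 26.5. miR-30e, miR-3102, miR-712 and miR-652 had ratios from 4.56 to 9.05. Of the hairpins with a brighter 3p strand, miR-29c had 1905 ± 44.4 against 23.7 ± 4.98 (80.2-fold), miR-22 had 3981 ± 56.0 against 97.1 ± 6.50 (41.0-fold) and miR-126a had 1213 against 63.1 (19.2-fold). miR-125a had 16.5-fold (1193 against 72.4), miR-378a 14.6-fold, miR-23a 12.2-fold, miR-7221 9.36-fold, miR-1839 4.69-fold and miR-99b 4.09-fold, and miR-193a had 349 against 32.6. The 3p strand was thus the brighter in the hairpins of miR-29c, miR-22 and miR-126a, and the 5p strand in those of miR-21a, miR-122 and miR-192.

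The hairpins of miR-21a and miR-125a are shown with both strands, the first for the widest measured ratio and the second because the strand more often named, miR-125a-5p, was the dimmer.
miR-21a-5p: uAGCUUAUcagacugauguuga
miR-21a-3p: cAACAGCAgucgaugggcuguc
miR-125a-5p: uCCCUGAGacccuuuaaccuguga
miR-125a-3p: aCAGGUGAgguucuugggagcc
miR-125a-5p had 72.4 ± 4.98 and miR-125a-3p 1193 ± 29.3. The strands of miR-17 (63.3 and 57.9), miR-5132 (94.9 and 99.2) and miR-455 (32.1 and 24.6) were within 1.5-fold of each other.

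**Figure D4:**
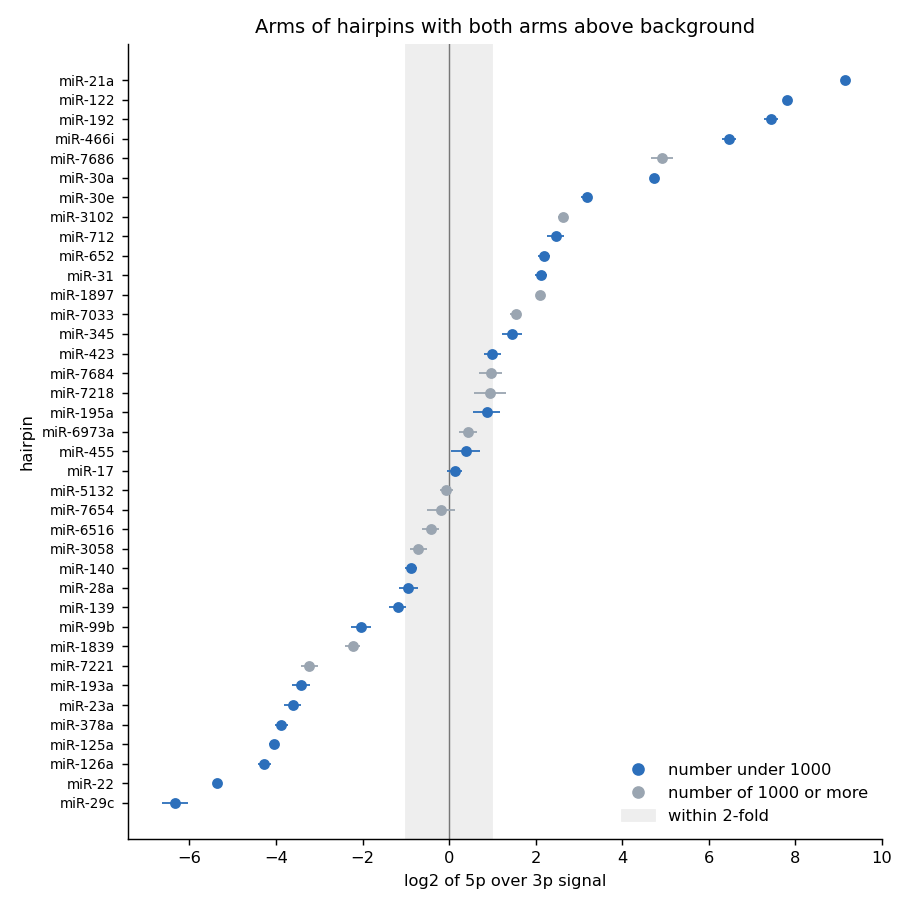
Log2 of the 5p over the 3p signal (x axis) for the 38 hairpins with both strands above background (y axis), coloured by miRBase number, with the spot SD carried through to the ratio as error bars and the grey band marking ratios within 2-fold. miR-21a lies farthest to the right at 9.13 and miR-29c farthest to the left at -6.33.

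Bounds went further than measured ratios. miR-494-3p was at least 2493-fold brighter than miR-494-5p, which lay at -1.15, and miR-7042-5p was at least 1830-fold brighter than its 3p strand. The 5p strands of miR-6769b, miR-1224, miR-7005 and miR-6969 were at least 1008-, 986-, 759- and 680-fold brighter than their 3p strands. The 3p strands of miR-5622, miR-211, miR-29a and miR-148a were at least 526-, 444-, 330- and 183-fold brighter than their 5p strands.

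miRNA genes on 1 strand within 10 kb of each other were grouped as clusters, whose members can come from 1 transcript. Of these, 19 had 3 or more members above background, and the brightest of those members was between 1.54 and 183 times as bright as the dimmest. Clusters were kept here only where 3 or more members passed, which bears on the shares below. On the whole array 26.4% of miRNAs were above background. In the cluster with the most members, at chr12:109709060-109747960 in the imprinted Dlk1-Dio3 region, 3 of 66 mature miRNAs were (4.55%). miR-494-3p had 38713 there, miR-3072-5p 486 and miR-134-5p 211. A neighbouring cluster at chr12:109611500-109618336 had 3 of 6 (50%), led by miR-370-3p with 2464 ± 67.6. A further one at chr12:109563692-109595388 had 3 of 26 (11.5%), led by miR-432 with 147. miR-494-3p was 183 times as bright as the dimmest neighbour that passed.

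Smaller clusters varied in this ratio. At chr13:48536012-48538272 let-7f-5p, let-7a-5p and let-7d-5p passed and their 3p strands, at -1.14 to 1.34, did not. let-7f-5p was 3.70 times as bright as let-7d-5p, but let-7f-5p also comes from a gene on chromosome X. At chr19:6264643-6264932, miR-192-5p was 3.55 times as bright as miR-194-5p, which also has a gene on chromosome 1. In the miR-17-92 cluster at chr14:115043671-115044506, a group of growth-promoting miRNAs, 7 of 11 mature miRNAs passed (63.6%, against 26.4% of the array). These 7 ran from 57.9 for miR-17-3p to 1647 for miR-19b-3p, with 1191 for miR-20a-5p and 801 for miR-92a-3p between them. miR-19b-3p and miR-92a-3p also have genes on chromosome X. In the cluster at chr8:84208518-84208921, miR-23a-3p had 514, miR-24-3p 476 and miR-27a-3p 169. In the cluster at chr17:17830352-17830879, let-7e-5p had 92.7 and miR-125a-3p 1193. At chrX:7237683-7248497, miR-188-5p had 2078, summed over 4 probes, and miR-362-3p 46.1. At chr5:138165321-138165818, miR-25-3p had 256 and miR-106b-5p 166.

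The names divide the miRNAs by age of registration, since miRBase numbers them in order of entry, and a split at 1000 was made after the values had been seen. Numbers of 1000 or more made up 289 of the 497 miRNAs above background and 55.9% of the summed signal, and 7 of the 10 and 15 of the 25 brightest. Of the miRNAs with such numbers 27.2% were above background, against 25.4% of those with lower numbers. Thus the classes were detected at like rates, with medians of 112 and 129 among those that passed. The strand differed more between the classes. Among numbers of 1000 or more, 37.5% of 411 5p strands and 10.5% of 411 3p strands passed, and among lower numbers 26.1% of 364 and 22.2% of 374. For hairpins with a strand above background, the 5p strand was at least 2-fold brighter in 116 of 181 with numbers of 1000 or more and in 63 of 128 with lower numbers, and the 3p strand in 29 of 181 and in 51 of 128.

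Base composition differed between miRNAs that passed and those that did not. Over the 1608 miRNAs with a sequence, the median G content was 38.1% in the 425 above background and 22.7% in the 1183 not above background, while the median U content was 19.0% and 27.3%. The share above background rose with each step of G content, from 6.94% of the 144 miRNAs with up to 10% G to 59.0% of the 229 with over 40% and up to 50% G and 92.9% of the 14 with over 60% G. Within numbers of 1000 or more, 65.9% of 246 miRNAs with over 40% G passed and 12.8% of 679 with less. Within lower numbers, 60.7% of 61 and 22.3% of 622 passed. The gap was thus present in both classes, and the G-rich miRNAs were mainly those with high numbers. Of the 19 among the 25 brightest with a sequence, 11 had over 40% G. Above background, the signal itself followed G content weakly (Spearman's rho 0.14 over 425 miRNAs, 0.32 over 249 with numbers of 1000 or more and 0.09 over 176 with lower numbers), where all points share 1 array and its probe design. The part of probe chemistry in these values was not tested.

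**Figure D5:**
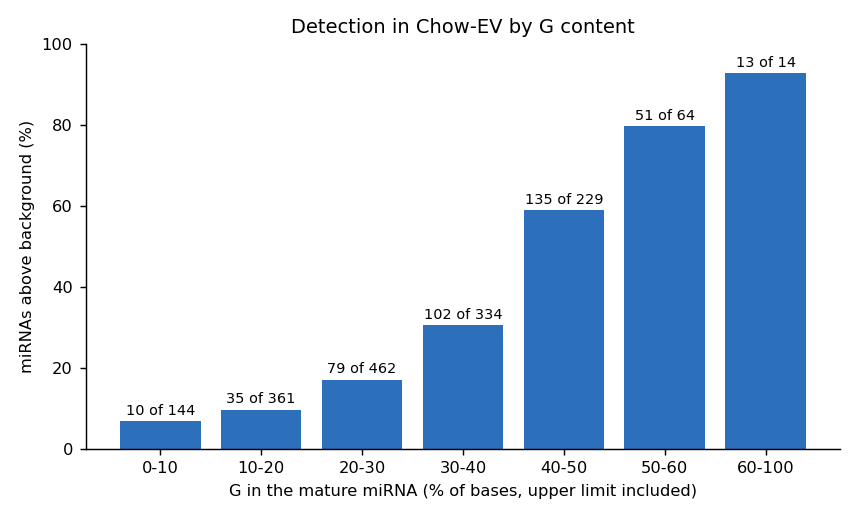
Share of miRNAs above background (y axis, percent) by the G content of the mature sequence (x axis, percent of bases), with the number above background of the number on the array over each bar. The share rose from 6.94% to 92.9%.

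The brighter strands of hairpins had more G as well. Of 207 hairpins with sequences for both strands and a difference of at least 2-fold, the brighter strand held the higher share of G in 172 (83.1%), with medians of 40.9% and 18.2%. This was the case in 113 of 117 hairpins with numbers of 1000 or more and in 59 of 90 with lower numbers. The first base, for which Argonaute proteins favour U or A, was U in 40 brighter and 23 dimmer strands of the 90 hairpins with lower numbers. In those with numbers of 1000 or more it was U in 47 brighter and 55 dimmer strands of 117. Of the 50 brightest miRNAs 41 had a sequence, and 15 of 21 with lower numbers and 7 of 20 with higher numbers began with U, against 40.2% of all miRNAs with a sequence.

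Short motifs known as binding sites of proteins that sort miRNAs into EVs were counted on the mature strand as written. GGAG is bound by hnRNPA2B1 in human T cells and GGCU by SYNCRIP in mouse hepatocytes. GGAG was present in 32.0% of miRNAs above background, in 8.03% of those not above background and in 14.4% of all 1608. GGCU was present in 15.3%, 12.3% and 13.1%. GGAG itself holds 3 G bases, so its share was also taken within ranges of G content. With over 30% and up to 40% G it was 31.4% of 102 above and 14.7% of 232 not above background, and with over 40% and up to 50% G it was 45.2% of 135 and 34.0% of 94. GGCU in the same ranges was in 15.7% and 20.7%, and in 19.3% and 30.9%. With over 50% G, GGAG was in 59.4% of 64 and 42.9% of 14, and GGCU in 18.8% and 14.3%. With over 20% and up to 30% G, GGAG was in 6.33% of 79 and 4.44% of 383, and GGCU in 11.4% and 12.0%. With up to 20% G, GGAG was in 0 of 45 above and 6 of 460 not above background, and GGCU in 4.44% and 4.35%. The share with GGAG was thus higher above background in the ranges over 20% G and not below, that of GGCU had no common direction, and these differences were not tested. Among the 41 of the 50 brightest miRNAs that had a sequence, GGAG was in 11 of 20 with numbers of 1000 or more and in 1 of 21 with lower numbers. GGCU was in 6 of 20 and 0 of 21.

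The probes of a miRNA did not always give the same level. For the 340 miRNAs with 2 probes, both above background, the brighter probe was a median of 1.44 times as bright as the dimmer, and in 105 (30.9%) the ratio was over 2. The widest ratios were 153 for miR-6378, 24.8 for miR-6987-5p, 14.0 for miR-3547-5p, 13.7 for miR-6937-5p and 12.2 for miR-7005-5p. miR-122-5p, miR-494-3p, miR-21a-5p and miR-5126 had both probes bright, while miR-7042-5p had 5835 and 22588.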

How the data were processed

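Agilent Feature Extraction 10.7.1.1 turned the scan into spot intensity values, which the authors deposited after background and spatial trends had been subtracted. A table deposited by the authors also gives normalised log2 values, and these entered 1 alternative. The linear fold changes in that table are the authors' own comparison and were not used. The methods name U6 as normaliser and GenePix as software, but no probe of the array is named U6. A probe had 7 to 30 spots before outliers were left out. Control and outlier spots were left out, the remaining spots of a probe were averaged and probes were summed per miRNA. No test was made, and under an alternative a share was taken as shifted past 1 spot SD and a count past 1.5 times. miRNAs named are the 25 brightest, the 10 widest strand ratios and the 5 widest bounds in each direction, the 10 brightest seed families, list members, clusters with 3 or more members above background, the 3 nearest the detection limit on each side and the 5 widest probe differences. The clusters named are a part of those, picked with their values known. The members and lists were chosen with earlier results of these data known. The lists are the let-7 family, miRNAs of lipid and cholesterol metabolism and of adipocyte differentiation, those the study followed up, and 9 lists of cell type markers. Of 1881 miRNAs 1608 (85.5%) matched a RefSeq sequence by name. The averaging of spots, the sum over probes and the detection call were run on simulated data, and the steps after them were not. Spots were flagged there by a set limit, and the simulated miRNAs lay above the range where the call is uncertain. The simulation therefore cannot test the call near background. Calculations ran in Python 3.11.15 (pandas 2.3.3, numpy 2.4.6, scipy 1.17.1) and, for normexp, in limma 3.58.1 under R 4.3.3, and matplotlib 3.10.9 drew the figures.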

Additional observations from a re-analysis of the deposited data

Results flagged for a closer look

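Some control features outside the miRNA measurement had signal above the negative control spots (mean plus 3 SD, 7.41). The feature named hur_2 had 94723 ± 3974 (SD, n = 40 spots), higher than miR-122-5p, and hur_1 had 31886 ± 19162. hur_6 had 4362, hur_4 had 4120 and mr_1 had 949.8, whereas hur_5 was at -0.37. Which RNAs these features detect is not given in the sources used here.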

How the results depend on the processing

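The number of miRNAs above background ran from 378 to 614 over 11 alternatives and 6 or 7 of the 7 hepatocyte-rich miRNAs passed in each. miR-122-5p was the brightest in every alternative and at least 8 of the 10 brightest were shared. miR-494-3p ranked second in place of miR-5126 with the brightest probe and with the authors' values. With Feature Extraction's total gene signal the third was miR-497a-5p, which had 15.2 and was not above background in the report's values. With normexp, whose offset of 50 is added to every spot, the 10 brightest gave 48.7%, miR-122-5p 12.1% and let-7 3.17%, and the 5p and 3p strands were brighter in 92 and 41 hairpins. With Feature Extraction's own total gene signal these shares were 47.0%, 10.6% and 2.66%. With the brightest probe, miR-122-5p gave 13.8% and let-7 3.57%. With the mean of probes the 10 brightest gave 54.5% and let-7 3.39%. With every probe required above background the 10 brightest gave 54.1%, with any spot sufficient the 5p strand was brighter in 113 hairpins, and with the authors' values miR-122-5p gave 14.6%. The cause of these shifts was not tested. No paired analysis was possible because there is 1 array and no replicate number pairs it with another. Signals from about 15.5 to 33.5 hold miRNAs on both sides of the detection call.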
